A study of Mus musculus with 6 samples.

Results

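The genes described here are 30 genes of cholesterol synthesis, uptake, storage and efflux. Their names came from a list chosen with earlier results of these data known. They were looked up in a table of 37620 mouse genes read in GMPs (granulocyte-macrophage progenitors), cells of the marrow that give rise to granulocytes and monocytes. A row was matched for 29 of the 30, and all 29 passed the filter on low values. Hmgcs1, an early enzyme of the mevalonate pathway, had no matched row, and its expression was not analysed here. The measured members were 17 enzymes of the mevalonate and sterol steps, 5 genes that control SREBP, and 7 genes of sterol transport, ester storage and LXR.

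The study has 6 libraries, 1 per sample, from C57BL/6 mice that all carried Bap1 f/f, a floxed allele of the nuclear deubiquitinase gene Bap1. The 3 control libraries came from Bap1 f/f mice with no Cre, and the 3 libraries labelled knockout from mice with the genotype MX1+ Cre Bap1 f/f. Per the labels, every mouse was 65 days old and was given polyI:polyC (pIpC) at 42 days, while the series' design text places the injections at a younger age. Mx1 is an interferon-responsive promoter, pIpC sets off the interferon that activates it, and Mx1-Cre is active in many cell types besides GMPs. Cre was carried by the knockout-labelled group alone, so what Cre does and what the loss of Bap1 does cannot be told apart. The labels do not say whether each library came from its own mouse, so the p-values measure the spread between these libraries, which may be technical.

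Values are normalized counts, the reads of a gene divided by a size factor for its library. Between 19.5 and 25.9 M gene reads stood behind each library. Bap1 (ENSMUSG00000021901) goes against the labels. It stood at 1343, 998.5 and 1076 in the control libraries and at 2671, 3309 and 2968 in the libraries labelled knockout (2.62-fold higher, limma adjusted p = 6.07e-05). Reads summed over the whole gene cannot show whether the floxed exons are lost. Every direction given here follows the label. All 12 genes listed for GMPs were read, 6 of them higher and 2 lower. They summed to 890000 to 964300 in the controls and 1106000 to 1602000 in knockout-labelled libraries, a sum carried mostly by Mpo and Elane. The 2 that fell encode surface proteins of the sort: Cd34 went from 11500 ± 297 to 3963 ± 244 and Fcgr3 from 13250 ± 728 to 7836 ± 1485 (SD, n = 3; limma adjusted p = 5.04e-06 and 0.00198). Kit, which encodes another surface protein of the sort, rose from 1096 ± 86.1 to 1524 ± 152 (SD, n = 3, limma adjusted p = 0.0214). Markers of other cells were read too. The sum of 12 monocyte and macrophage genes was 25540 to 26930 in the controls and 7714 to 9048 in knockout-labelled libraries, with 10 of the 11 tested lower, 1 higher and none at 0 throughout a group. Dendritic cell genes (7 of 9 tested) and B lymphoid genes (6 of 6) were lower as well, mast cell and basophil genes were lower in 4 of 8 and higher in 1, and erythroid genes were higher in 6 of 10. Of the T and NK cell genes 4 of 5 tested were lower and 1 higher, and of the mature neutrophil genes 1 of 9 was higher and 0 lower. By the same limma test, 11.8% of all 14391 genes tested were higher and 15.0% lower. Counts of Xist and Y-linked genes marked 1 female mouse in each group (control replicate 1 and knockout replicate 3).

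Cells make cholesterol from acetyl-CoA. The mevalonate steps build farnesyl diphosphate, and the sterol steps join it into squalene, close the rings to lanosterol and trim lanosterol to cholesterol. When membrane sterol is low, Scap carries the SREBP transcription factors from the endoplasmic reticulum to the Golgi, where they are cut and released to switch on synthesis and uptake genes, and Insig proteins hold Scap back when sterol is plentiful. LXR nuclear receptors respond to oxysterols and drive efflux through the transporters Abca1 and Abcg1. In blood progenitors this balance is known to affect growth and the output of myeloid cells.

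Among the 29 measured members, 5 rose and 9 fell in the libraries labelled knockout, by limma at an adjusted p of 0.05 over all genes tested. That is 48.3% of the members, where 26.8% of all 14391 genes tested passed (11.8% higher and 15.0% lower). The members were chosen with earlier results of these data known. A share above that of all genes may thus be partly built in, and it was not tested. The 7 enzymes that passed all fell: Mvd, Pmvk, Fdft1, Sqle, Cyp51, Msmo1 and Ebp. Of the SREBP control genes, Srebf1, Scap and Insig1 rose. In the third group Soat1 and Stard4 fell, and Abcg1 and Mylip rose. The median log2 fold change was -0.15 for the 17 enzymes, 0.49 for the 5 SREBP control genes and 0.32 for the 7 transport, storage and LXR genes, against 0.01 over all genes tested. In 15 of 29 members (51.7%) the ranges of the groups did not overlap, 8 with knockout-labelled libraries above and 7 below, where 42.9% of all genes tested had separate ranges (20.4% above and 22.5% below). Correcting each library for GC content and transcript length kept 11 of the 14 calls and added others, giving 10 members higher and 6 lower, while over all genes the split went from 1695 higher and 2163 lower to 2641 and 1917. The counts of members also moved with single libraries: 2 were higher and 6 lower without control replicate 3, 3 and 4 without control replicate 2, 5 and 5 without control replicate 1, and 4 and 5 without knockout replicate 2.

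**Figure D1:**
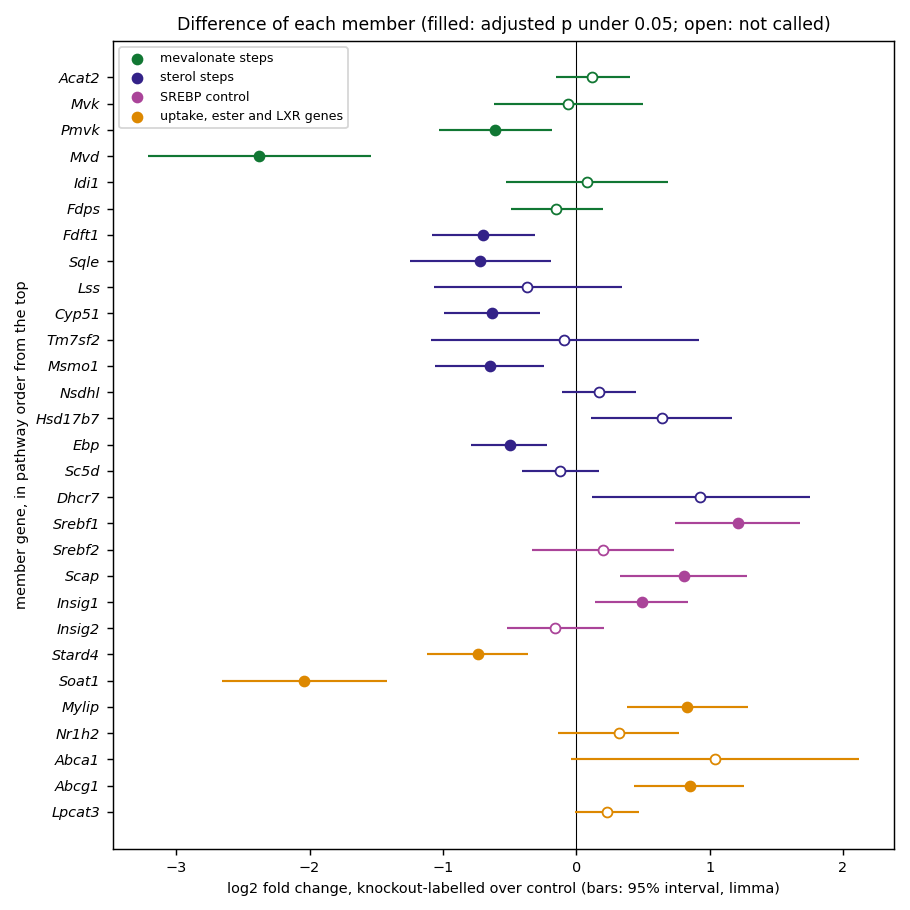
Log2 fold change of each of the 29 measured members (x axis, knockout-labelled over control) in pathway order (y axis), with bars for the 95% interval of the limma fit, colours for the 4 groups of genes, filled points for adjusted p under 0.05 and open points for genes that did not pass. Mvd at -2.38 and Soat1 at -2.04 lie farthest to the left, and Srebf1 at 1.21 farthest to the right.

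Promoter sequence is shown for 4 members from different roles, 2 that fell (Mvd and Msmo1, enzymes) and 2 that rose (Insig1, which retains Scap, and Mylip, a target of LXR), so that members moving in opposite directions can be read side by side. Each is the 250 bases before the RefSeq start site on GRCm38.p6, written 5′ to 3′ along the gene, and capitals mark every CCAAT (the box bound by NF-Y) and GGGCGG (the GC box bound by Sp1), on either strand. The windows lie at chr8:122443423-122443672 (minus strand) for Mvd, chr8:64733579-64733828 (minus strand) for Msmo1, chr5:28071162-28071411 (plus strand) for Insig1 and chr13:45389492-45389741 (plus strand) for Mylip.
Mvd: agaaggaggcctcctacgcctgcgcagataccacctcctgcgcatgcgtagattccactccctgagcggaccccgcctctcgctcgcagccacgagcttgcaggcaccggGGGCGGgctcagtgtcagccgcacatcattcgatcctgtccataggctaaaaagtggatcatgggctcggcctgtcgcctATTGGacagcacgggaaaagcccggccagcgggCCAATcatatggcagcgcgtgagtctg
Msmo1: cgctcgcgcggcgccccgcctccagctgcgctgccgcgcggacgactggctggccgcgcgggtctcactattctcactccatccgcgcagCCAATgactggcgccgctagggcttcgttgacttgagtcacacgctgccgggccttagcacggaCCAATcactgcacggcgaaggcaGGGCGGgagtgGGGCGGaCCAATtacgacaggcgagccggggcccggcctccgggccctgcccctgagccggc
Insig1: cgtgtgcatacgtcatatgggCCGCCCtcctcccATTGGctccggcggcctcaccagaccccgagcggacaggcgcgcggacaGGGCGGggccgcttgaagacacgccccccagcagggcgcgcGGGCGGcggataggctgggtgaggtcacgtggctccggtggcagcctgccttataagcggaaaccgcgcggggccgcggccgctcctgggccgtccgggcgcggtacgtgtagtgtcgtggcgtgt
Mylip: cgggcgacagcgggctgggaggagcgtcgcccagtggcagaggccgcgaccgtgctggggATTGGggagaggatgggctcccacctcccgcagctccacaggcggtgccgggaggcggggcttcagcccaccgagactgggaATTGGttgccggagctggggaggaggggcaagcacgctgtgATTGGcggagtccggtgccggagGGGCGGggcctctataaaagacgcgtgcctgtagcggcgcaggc
Mvd held 2 CCAAT boxes and 1 GC box, Msmo1 3 and 2, Insig1 1 and 3, and Mylip 3 and 1. Both kinds of box were in most member windows, as given below, so finding them in these 4 says nothing about direction. RefSeq windows, from 250 bases before to 50 after a start, were used for 25 of the 30 members, 33 windows in all, of which some of the same gene overlap. Windows on 1 chromosome were left out for the members but kept among all windows. CCAAT was in 22 of the 33 windows (66.7%) and in 37.4% of all 32851 windows of that length, and GGGCGG was in 27 (81.8%) against 35.7%. The SREBP site TCACNCCAC was found in 1 member window (3.03%), of Hmgcs1, which had no matched row, and in 1.24% of all windows. The palindrome TCACNTGA was found in 1 window, of Insig2, against 4.18% of all, and the direct repeat bound by LXR, a pair of AGGTCA with 4 bases between them, in 0 member windows, against 0.0152%. A match describes the letters of the window and is not a measured binding site. Sites that depart from these letters are not counted, so a missing match does not show that a site is absent.

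The mevalonate steps held the member with the greatest fall. Mvd (ENSMUSG00000006517), the decarboxylase that makes isopentenyl diphosphate, was at 251, 279 and 143 normalized counts in the controls and 24.5, 48.9 and 56.0 in knockout-labelled libraries. The lowest control library was above every knockout-labelled library, and the reads behind these values numbered 160 to 292 and 23 to 49. Mvd thus fell 5.20-fold by group means (log2 fold change -2.38, SE 0.38, limma adjusted p = 0.000996). Its call stood under all 16 alternative settings tried, with adjusted p from 2.48e-08 to 0.00995.

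The kinase directly before it, Pmvk, which makes mevalonate diphosphate, was at 634, 507 and 484 in the controls and 283, 388 and 401 in knockout-labelled libraries. The groups did not overlap, and Pmvk fell 1.52-fold (log2 fold change -0.61, SE 0.19, limma adjusted p = 0.0379). The Pmvk call was lost without control replicate 1 (0.154), 2 (0.0868) or 3 (0.0698), without knockout replicate 1 (0.0893) or 2 (0.0531), and among the male libraries alone (0.111). The first kinase of the branch, Mvk, was at 245, 194 and 193 against 168, 283 and 169, with overlapping groups and a log2 fold change of -0.06 (95% interval -0.62 to 0.50). Acat2, the cytosolic thiolase that joins acetyl-CoA units at the start of the pathway, averaged 1473 ± 115 in the controls and 1603 ± 103 under the knockout label (SD, n = 3; log2 interval -0.15 to 0.40). It is a different gene from Soat2, whose protein is also called ACAT2. Idi1, the isomerase of isopentenyl diphosphate, was at 207 ± 40.1 and 224 ± 72.8 (SD, n = 3), and Fdps, which makes farnesyl diphosphate, at 1659 ± 67.6 and 1523 ± 328 (SD, n = 3). Neither Idi1 nor Fdps passed (limma adjusted p = 0.863 and 0.534), and for both the groups overlapped.

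Fdft1 and Sqle, the enzymes that make squalene and its epoxide, were both called lower. Fdft1, squalene synthase, was at 442, 430 and 520 in the controls and 301, 294 and 262 in knockout-labelled libraries. Those ranges were well apart, with a 1.63-fold fall (log2 fold change -0.70, SE 0.17, limma adjusted p = 0.0128), lost without control replicate 3 (0.0745) and among the male libraries (0.0624). Fdft1 shares exon bases on the opposite strand with Ctsb, a far more abundant cathepsin gene that did not pass (log2 fold change 0.25, limma adjusted p = 0.181). Sqle, squalene epoxidase, a rate-limiting step, was at 1542, 1296 and 786 in the controls and 580, 660 and 918 in knockout-labelled libraries. Control replicate 3 lay below knockout replicate 3, so the groups overlapped. The 1.68-fold fall of Sqle was close to the threshold (limma adjusted p = 0.0465). It was lost with a pseudocount of 0.5 (0.05, just above the threshold), without a filter beyond 1 read (0.0659), after GC and length correction (0.0907), without control replicate 1 (0.176) or 2 (0.157), without knockout replicate 1 (0.136) or 2 (0.132), and among the male libraries (0.0624).

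From lanosterol on, 3 enzymes fell and the rest did not pass. Cyp51, the lanosterol demethylase, was at 798, 899 and 702 in the controls and 596, 463 and 493 in knockout-labelled libraries, with no overlap. It fell 1.55-fold (log2 fold change -0.63, SE 0.16, limma adjusted p = 0.0155), which no longer passed without control replicate 2 (0.0839), without knockout replicate 2 (0.05, just above the threshold) and among the male libraries (0.0787). Akap9, which overlaps Cyp51 on the other strand, was itself lower (log2 fold change -0.46, limma adjusted p = 0.00973), and whether its reads enter the Cyp51 count was not tested. Msmo1, the methylsterol oxidase of the demethylation complex, was at 1291, 1360 and 986 against 994, 679 and 667. Its groups touched, control replicate 3 lying just below knockout replicate 1. The 1.55-fold fall (limma adjusted p = 0.0245) was lost after GC and length correction (0.11), without control replicate 1 (0.0811) or 2 (0.112), without knockout replicate 2 (0.0876) or 3 (0.07), and among the male libraries (0.158). Ebp, the sterol isomerase, was at 3913, 4260 and 4072 against 3054, 3247 and 2412. Every control library was above every knockout-labelled one, a 1.41-fold fall (log2 fold change -0.50, SE 0.13, limma adjusted p = 0.0153) that was lost without control replicate 2 (0.0736) or 3 (0.0611) and among the male libraries (0.0618).

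The other sterol enzymes leaned both ways. Hsd17b7, a reductase of the same demethylation complex as Msmo1, was at 124, 110 and 126 in the controls and 208, 151 and 209 in knockout-labelled libraries, and Dhcr7, the reductase of the last step, at 683, 496 and 188 against 611, 842 and 869. Hsd17b7 had separate groups and Dhcr7 did not, and neither passed (limma adjusted p = 0.0709 and 0.0831). Hsd17b7 passed after GC and length correction (0.0104) and without knockout replicate 2 (0.0468), and Dhcr7 after that correction (0.046), without control replicate 1 (0.0194) and among the male libraries (0.0436). Nsdhl, the dehydrogenase of that complex, had a log2 fold change of 0.17 (limma adjusted p = 0.343) and 0.44 after the correction (0.00962), and Acat2 had 0.12 (0.502) and 0.32 (0.04). With the correction, 4 of the 17 enzymes were therefore higher and 5 lower, where the uncorrected fit called 0 higher and 7 lower. Over all genes the split moved too, from 1695 higher and 2163 lower of 14391 to 2641 and 1917 of 13794. Sc5d, a desaturase, was at 1434 ± 94.0 and 1324 ± 156 (SD, n = 3) and Lss, which forms lanosterol, at 155 ± 24.1 and 126 ± 47.0 (SD, n = 3). Tm7sf2, a sterol reductase, was at 55.1, 26.8 and 99.8 against 44.8, 56.2 and 49.1, and it shares exon bases on the same strand with the more abundant Vps51, so its count is uncertain. The log2 interval of Lss ran from -1.07 to 0.34 and that of Tm7sf2 from -1.09 to 0.92, so each holds both no difference and a fall of 1 log2 unit.

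**Figure D2:**
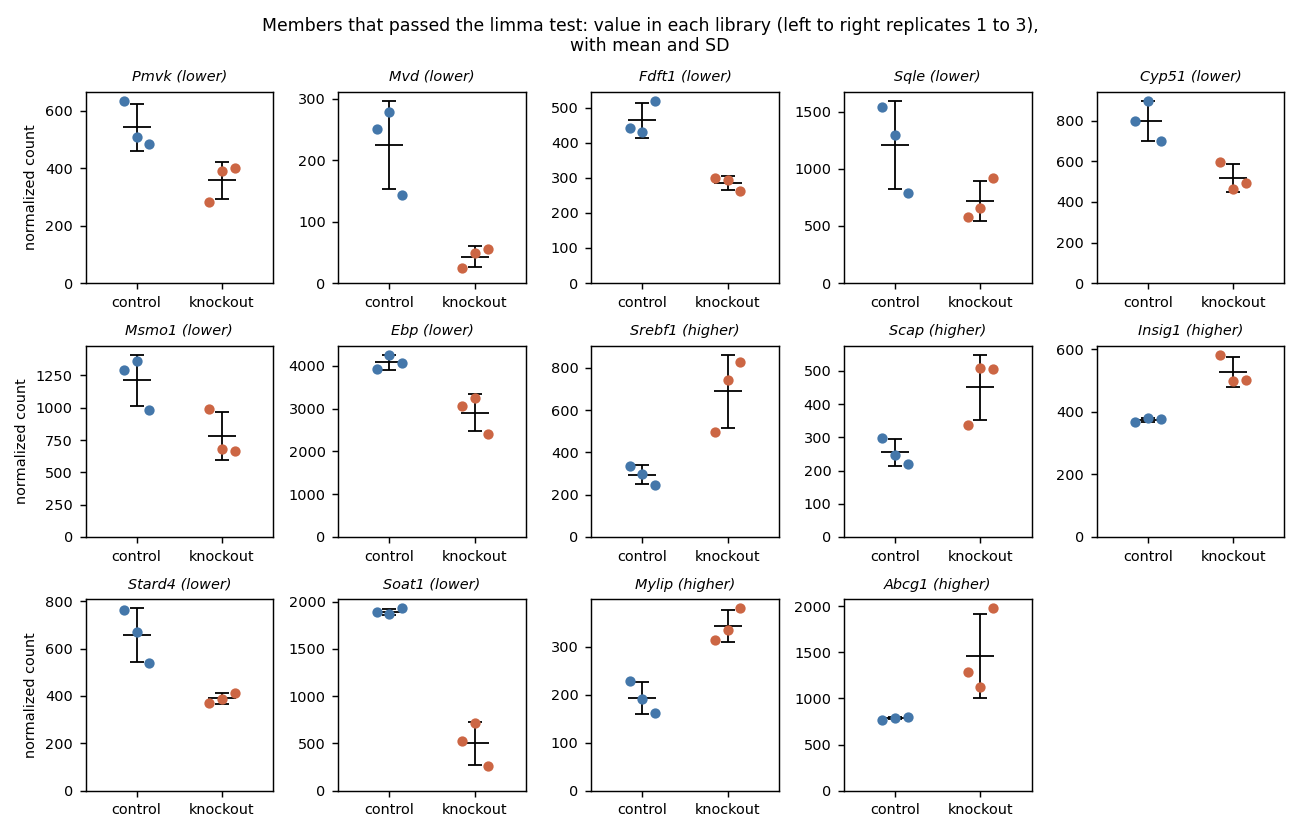
Normalized count (y axis, from 0) of the 14 members that passed the limma test in each of the 3 control and 3 knockout-labelled libraries (x axis, replicates 1 to 3 from left to right), with a bar at the group mean and whiskers for the SD. Among the 9 members that fell, Sqle and Msmo1 are the panels in which a control library lies below a knockout-labelled one, and Soat1 has a tight control group beside widely spread knockout-labelled values.

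Of the 5 genes that control SREBP, 3 rose (Srebf1, Scap and Insig1) and 0 fell, where 11.8% of all genes tested were higher and 15.0% lower. Srebf2 and Insig2 did not pass. Without control replicate 2 or 3 or knockout replicate 2, or among the male libraries alone, 1 of the 5 was higher. Srebf1 (ENSMUSG00000020538), which encodes SREBP1, was at 336, 298 and 247 in the controls and 497, 746 and 829 in knockout-labelled libraries. All 3 knockout-labelled libraries lay above the controls, and Srebf1 rose 2.35-fold (log2 fold change 1.21, SE 0.22, limma adjusted p = 0.00196), a call kept under all 16 alternatives with adjusted p up to 0.0136. Rai1, which overlaps Srebf1 on the opposite strand, did not pass (limma adjusted p = 0.579). Scap, the escort of SREBP, was at 299, 248 and 218 against 337, 508 and 507. Its groups were apart, and the 1.77-fold rise (log2 fold change 0.81, SE 0.22, limma adjusted p = 0.0178) was lost without control replicate 2 (0.0632) or 3 (0.0811), without knockout replicate 2 (0.0688) or 3 (0.0552), and among the male libraries (0.0524). A transcript annotated on the strand opposite Scap, 5830462I19Rik, was higher too (log2 fold change 1.28, limma adjusted p = 0.0256), and its share in the Scap count was not tested.

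Insig1, which keeps Scap in the endoplasmic reticulum and is itself a target of SREBP, was at 367, 378 and 376 in the controls and 582, 499 and 501 in knockout-labelled libraries. The control libraries were within 1.03-fold of each other and all below the knockout-labelled ones. Its 1.41-fold rise (log2 fold change 0.49, SE 0.16, limma adjusted p = 0.0401) was lost without control replicate 1 (0.111), 2 (0.106) or 3 (0.112), without knockout replicate 1 (0.0801) or 2 (0.0556), and among the male libraries (0.116). Insig2, its paralog, was at 772 ± 145 and 685 ± 43.3 (SD, n = 3; limma adjusted p = 0.53). Srebf2 encodes SREBP2, the form that chiefly drives cholesterol synthesis, and was at 362, 284 and 232 against 246, 411 and 356. The Srebf2 groups overlapped, with a log2 fold change of 0.20 (95% interval -0.33 to 0.73, limma adjusted p = 0.576), and a test of the difference between Srebf1 and Srebf2 was not made.

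Of the storage and transport genes, Soat1 had the lowest p of all members. Soat1 (ENSMUSG00000026600) encodes the acyltransferase that esterifies cholesterol for storage in droplets. Its values were 1887, 1866 and 1927 in the controls and 524, 718 and 260 in knockout-labelled libraries. The controls spanned 1.03-fold and the knockout-labelled libraries 2.76-fold, with a wide gap between the groups. Soat1 fell 3.78-fold (log2 fold change -2.04, SE 0.28, limma adjusted p = 0.000432) and kept its call under all 16 alternatives (adjusted p up to 0.00383). In the same libraries 10 of 11 tested monocyte and macrophage markers were lower, with the summed level going from 25540 to 26930 down to 7714 to 9048. F13a1 was at 11640, 12930 and 13130 against 2281, 2179 and 2101. The exception, Cd68, was higher, at 1549, 1507 and 1453 against 3260, 3266 and 3832 (limma adjusted p = 4.67e-05). Most dendritic cell genes and all tested B lymphoid genes were lower as well. The part of these markers in the fall of Soat1 was not tested. In these bulk samples fewer cells of a type and less RNA per cell cannot be told apart. Stard4, a soluble carrier that moves cholesterol between membranes and a target of SREBP, was at 762, 670 and 539 against 370, 385 and 415. The groups were apart, and Stard4 fell 1.68-fold (log2 fold change -0.74, SE 0.17, limma adjusted p = 0.00895), which no longer passed after GC and length correction (0.0604), without control replicate 1 (0.0501) and among the male libraries (0.051).

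The listed group of 7 transport, storage and LXR genes had 2 higher and 2 lower, where 11.8% of all genes tested were higher and 15.0% lower. The lower genes were Soat1 and Stard4, and the higher were Abcg1 and Mylip, both tied to LXR. Among 9 tested LXR partners and further targets, given below, 1 rose and 2 fell. Abcg1 (ENSMUSG00000024030), the transporter that loads cholesterol onto lipoprotein particles, was at 771, 789 and 802 in the controls and 1290, 1121 and 1974 in knockout-labelled libraries. Controls were within 1.04-fold of each other and below every knockout-labelled library. Abcg1 rose 1.86-fold (log2 fold change 0.85, SE 0.19, limma adjusted p = 0.00688), under all 16 alternatives (adjusted p up to 0.0355). Mylip, a ubiquitin ligase that LXR induces and that sends lipoprotein receptors for degradation, was at 229, 191 and 161 against 315, 335 and 380. The groups did not overlap, and the 1.77-fold rise (log2 fold change 0.83, SE 0.21, limma adjusted p = 0.0124) was lost in 1 of the 16 alternatives, without control replicate 3 (0.0632).

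Abca1, the transporter that loads cholesterol onto lipid-poor apolipoprotein, was at 29.3, 46.8 and 12.5 in the controls and 46.9, 51.0 and 67.4 in knockout-labelled libraries, on 14 to 59 reads a library. The groups just failed to meet, and Abca1 did not pass (log2 fold change 1.04, 95% interval -0.04 to 2.12, limma adjusted p = 0.142). Lpcat3, a phospholipid acyltransferase that LXR induces, was at 3069, 3062 and 3197 against 3505, 3946 and 3527, a small and even step of 0.23 on the log2 scale (SE 0.11, limma adjusted p = 0.137) that passed after GC and length correction (0.0159). Nr1h2, the broadly expressed receptor LXR beta, was at 1065, 971 and 906 against 848, 1639 and 1303. Knockout replicate 1 lay below the controls and the other two above, so the groups overlapped (limma adjusted p = 0.286), and without that library Nr1h2 was called higher (0.0175).

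**Figure D3:**
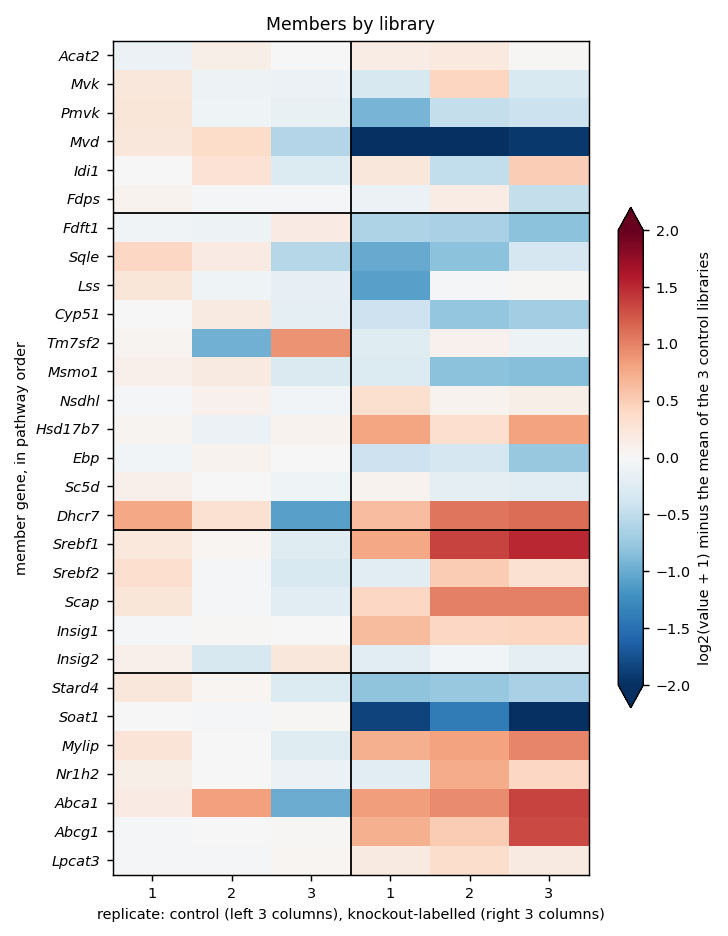
Heat map of log2(value + 1) minus the mean of the 3 control libraries for the 29 measured members (rows in pathway order, lines between the 4 groups of genes) in each library (columns). Blue runs through Mvd, Pmvk, Fdft1, Sqle, Cyp51, Msmo1, Ebp, Stard4 and Soat1 in the 3 knockout-labelled columns. Red runs there through Hsd17b7, Dhcr7, Srebf1, Scap, Insig1, Mylip, Abca1 and Abcg1. Dhcr7, Tm7sf2 and Abca1 vary widely within the control columns.

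Set against the mean of the controls, the median enzyme was at -0.27, -0.20 and -0.31 on the log2 scale in knockout replicates 1, 2 and 3, where the control libraries were at 0.07, 0.06 and -0.12. The median SREBP control gene was at 0.41, 0.51 and 0.42 in those libraries, and the median transport, storage and LXR gene at 0.17, 0.51 and 0.41. Single genes departed from these medians: Acat2, Nsdhl, Hsd17b7 and Dhcr7 were above their control mean in all 3 knockout-labelled libraries. Insig2, Stard4 and Soat1 were below it in all 3, with Soat1 at -1.85, -1.40 and -2.86 in knockout replicates 1, 2 and 3. These are differences in level with no test, since the members were chosen with results known.

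Scaled to the length of the longest annotated transcript, the members spanned a wide range of levels. Ebp was highest in control at 2340 ± 99.5 normalized counts per kb (SD, n = 3), followed by Lpcat3 at 1310 ± 32.1. Acat2 (655 ± 51.2) and Nsdhl (600 ± 31.0) came next and differed from each other by about their SDs, as did Fdps (562 ± 22.9). Abca1 was lowest at 2.88 ± 1.67 per kb, below Tm7sf2 (19.6 ± 11.9) and Lss (22.1 ± 3.45), which overlapped. Soat1 went from rank 12 of 29 in control (226 ± 3.70 per kb) to rank 24 in knockout-labelled libraries (59.8 ± 27.5), and Mvd from rank 19 (122 ± 39.3) to 26 (23.5 ± 9.0). Srebf1 per kb was 68.3 ± 10.4 in control, close to Srebf2 at 57.6 ± 12.9, and 161 ± 40.2 against 66.6 ± 16.5 in knockout-labelled libraries.

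**Figure D4:**
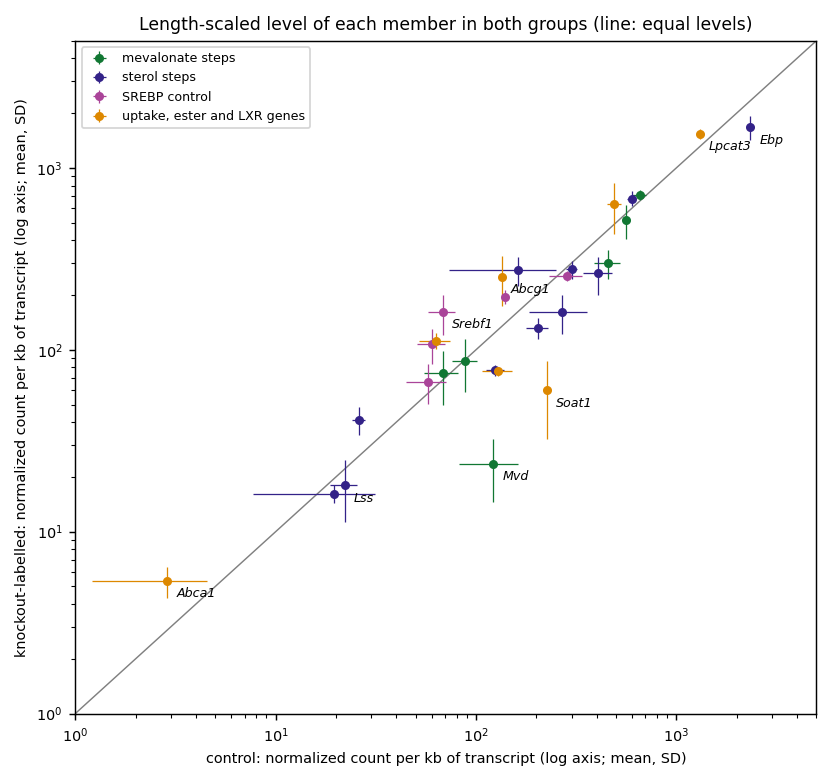
Mean normalized count per kb of transcript of each measured member in control (x axis, log scale) and knockout-labelled libraries (y axis, log scale), with SD bars, colours for the 4 groups of genes and a line of equal levels. Soat1 and Mvd lie farthest below the line, and Ebp is the most abundant member in both groups.

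The neighbouring parts of the pathway, in 6 lists of 77 genes that share no gene with the members, had 7 genes higher and 11 lower among 73 tested (24.7%), near the 26.8% of all genes. In the list of LXR partners and further LXR targets, 1 of 9 tested genes rose and 2 fell. Nr1h3, the macrophage-enriched receptor LXR alpha, was at 103, 90.8 and 85.6 normalized counts in the controls and 2.13, 18.7 and 4.57 in knockout-labelled libraries. Its groups were far apart, on 2 to 18 reads in the latter, and it fell 11.0-fold by group means (log2 fold change -3.74, SE 0.64, limma adjusted p = 0.00146). Rxra, a partner of LXR, rose 3.07-fold from 33.5 ± 5.04 to 103 ± 21.2 (SD, n = 3; limma adjusted p = 0.00541). Smpdl3a, a phosphodiesterase induced by LXR, fell 1.70-fold (limma adjusted p = 0.0298), but not by DESeq2 (0.135), after GC and length correction (0.0601) or without control replicate 1 (0.0626), 2 (0.0915) or 3 (0.0854). Nr1h3 thus fell where Nr1h2 did not pass, and the difference between these receptors was not tested. The lower level of monocyte and macrophage markers other than Cd68, given beside Soat1, moved with Nr1h3 as well, and its part was not tested.

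Among 15 tested genes of sterol transport and ester turnover, 0 rose and 3 fell (20.0% called, against 26.8% of all genes tested). Lipa, the lysosomal lipase that frees cholesterol from lipoprotein esters, was at 2780, 2690 and 2971 against 598, 671 and 598, with a wide gap. It fell 4.52-fold (log2 fold change -2.18, SE 0.12, limma adjusted p = 1.55e-06). Monocyte and macrophage markers other than Cd68 were again lower beside it, and their part was not tested. Osbpl9, an oxysterol-binding protein, fell 1.44-fold (limma adjusted p = 0.0129) and Npc2, which carries cholesterol out of lysosomes, 1.37-fold (limma adjusted p = 0.0229). Both lost their call after GC and length correction (0.0624 and 0.0662), without control replicate 2 (0.0636 and 0.0942) or 3 (0.0562 and 0.0584) and among the male libraries (0.0578 and 0.131), and Npc2 also without control replicate 1 (0.0882). Of 9 lipoprotein and scavenger receptors, Lrp10 rose 1.71-fold (limma adjusted p = 0.00715) and Cd36, a fatty acid and scavenger receptor, fell from 66.7 ± 26.8 to 19.8 ± 4.67 (SD, n = 3; limma adjusted p = 0.0202). The Cd36 call was lost after the correction (0.0532), without control replicate 1 (0.097) or 3 (0.0848) and among the male libraries (0.133).

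Fatty acid synthesis, the other program of SREBP, had 3 genes higher and 2 lower of 15 tested (33.3% called, against 26.8% of all genes). Elovl6, an elongase of saturated fatty acids, was at 548, 711 and 693 against 98.1, 93.7 and 292 and fell 4.03-fold (log2 fold change -2.21, SE 0.36, limma adjusted p = 0.00122). Elovl5, an elongase of polyunsaturated fatty acids, was at 5574, 5798 and 5869 against 8286, 8547 and 7871 and rose 1.43-fold (limma adjusted p = 0.00356). Neither pair of groups overlapped, and the elongases went opposite ways. Scd2, a desaturase, rose 1.44-fold (limma adjusted p = 0.017), lost without control replicate 1 (0.0671) or 3 (0.0775) and among the male libraries (0.0801). The other called genes of this list were Acsl4, a ligase of long-chain fatty acids, which fell 1.44-fold (limma adjusted p = 0.0201), and Acacb, a mitochondrial acetyl-CoA carboxylase, at 8.88, 0 and 0.891 against 25.6, 14.6 and 21.7 (limma adjusted p = 0.0339). The Acsl4 call was lost after the correction (0.31), without control replicate 1 (0.0508), 2 (0.0789) or 3 (0.0814), without knockout replicate 2 (0.0578) and among the male libraries (0.0756). Acacb, on 24 reads or fewer a library, was not called by edgeR (0.0626) or DESeq2 (0.0802), nor without control replicate 2 (0.0971) or 3 (0.0854) or knockout replicate 1 (0.0921), 2 (0.0666) or 3 (0.0854).

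Among 11 tested genes of SREBP cleavage and sterol-regulated degradation, 2 rose and 1 fell (27.3% called, near the 26.8% of all genes tested). Pgrmc1, a haem-binding membrane protein that interacts with Cyp51 and the Insig-Scap complex, was at 2704, 2865 and 3272 against 5873, 4453 and 6282, well apart. It rose 1.88-fold (log2 fold change 0.90, SE 0.14, limma adjusted p = 0.001). Ufd1, which helps extract ubiquitinated proteins from the endoplasmic reticulum, rose 1.41-fold (limma adjusted p = 0.0109), lost without control replicate 3 (0.0551). Rnf139, a sterol-responsive ubiquitin ligase, fell 1.41-fold (limma adjusted p = 0.0436), with the call lost in 9 of 16 alternatives, among them the GC and length correction (0.322), every control replicate left out (0.0661 to 0.161) and knockout replicate 2 (0.126) or 3 (0.0917) left out. In the isoprenoid branch, which leaves the mevalonate pathway for dolichol, ubiquinone and protein prenylation, 0 of 14 rose and 2 fell. That is 14.3% called, below the 26.8% of all genes tested. Dhdds, of dolichol synthesis, fell 1.48-fold (limma adjusted p = 0.0217), lost without control replicate 2 (0.112) or 3 (0.0686). Pggt1b, a prenyltransferase subunit, fell 1.40-fold (limma adjusted p = 0.0382), with the call lost in 8 of 16 alternatives, among them the GC and length correction (0.409), every control replicate left out (0.0955 to 0.135) and knockout replicate 2 (0.0531) or 3 (0.0933) left out.

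**Figure D5:**
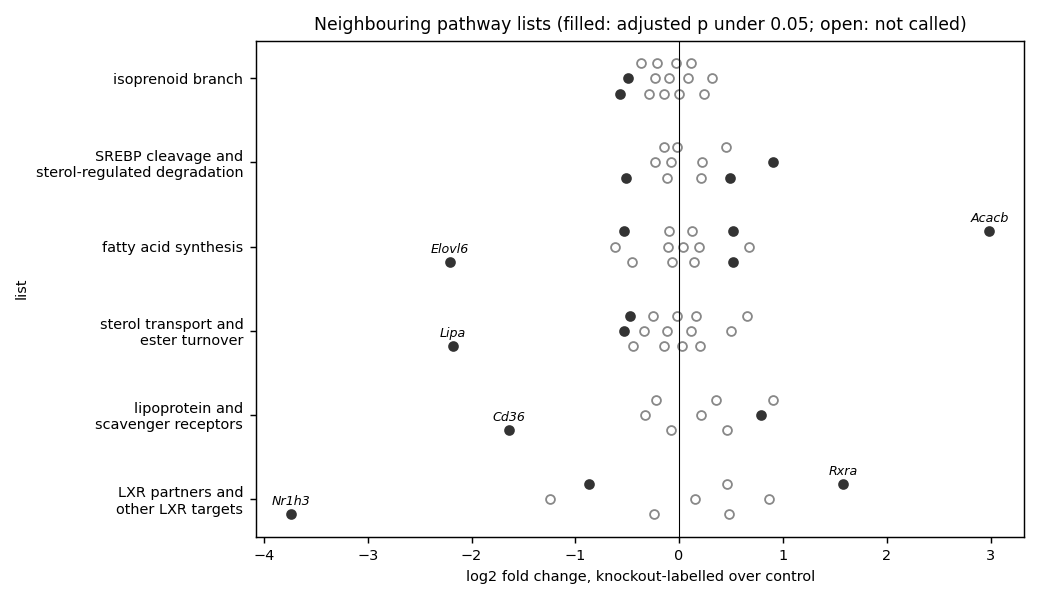
Log2 fold change (x axis, knockout-labelled over control) of the 73 tested genes of 6 neighbouring pathway lists (y axis, small vertical offsets for legibility), filled where the adjusted p is under 0.05 and open where the gene did not pass, with names for called genes beyond 1 on the log2 scale. Nr1h3, Elovl6, Lipa and Cd36 lie to the left of the main cluster, and Rxra and Acacb to the right.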

How the data were processed

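Per the labels' protocols, GMPs were sorted as Lineage-negative, c-Kit-positive, Sca1-negative and CD34-positive cells stained for an Fc receptor, and a SMARTer low-input kit amplified their RNA before Ion Torrent library preparation with PCR. The submitters' processing notes name STAR, BWA 0.7.5a, Picard, HTSeq and DESeq2 and the mouse builds mm9 and NCBIM37, without roles. No source used here gives the strand setting of the counting, and reads of overlapping genes may be mixed. Per gene and library, the authors deposited a signal, a read count scaled by a single factor for the library: 100% of values above 0 were whole multiples (within 0.01 of a read) of the value of 1 read, 0.8885 to 1.1419. Rows that name no gene (5) held reads that fell in no gene (38.39 to 40.9%), had no unique alignment (26.76 to 28.79%), had none (6.3 to 11.62%) or were ambiguous (0.12 to 0.13%) and were left out, so genes with close copies are undercounted.

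Symbols came from GENCODE M21 (GRCm38, another build than the files', used for names, lengths and GC content), which named 32897 of 37620 IDs. The main test was limma 3.58.1 (R 4.3.3), with the trend of variance on mean modelled, on the log2 of the deposited value plus 1. It covered 14391 genes averaging at least 10 and was 2-sided, with group as the sole term and Benjamini-Hochberg adjustment over all of them. This scale understates the change of low genes. The call was an adjusted p under 0.05, folds are ratios of group means, and intervals are at 95%. Alternatives were pseudocounts of 0.5 and 4, no filter beyond 1 read or a mean of at least 50, edgeR 4.0.16 (TMM) and DESeq2 1.42.0 on the whole reads recovered, centring on the median gene, a spline correction for GC content and length (13794 genes), a replicate block, each library left out, and the male libraries alone. The main limma fit was also tried on simulated libraries, and the alternatives were not. Promoters came from RefSeq (GRCm38.p6).

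The members and lists were chosen with earlier results of these data known, so no list was tested as a set. All members are named. Of each neighbouring list, up to 3 called genes with the lowest adjusted p are named, and Nr1h3. Acsl4, Acacb, Cd34, Fcgr3, Kit and Cd68 were named after their values were seen. A gene of the lists is not reported here and was left out of their counts.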

Additional observations from a re-analysis of the deposited data

How the results depend on the processing

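The 16 alternatives changed none of the directions of the 14 called members, and Mvd, Srebf1, Soat1 and Abcg1 were called in all of them. On the recovered reads, edgeR and DESeq2 each called the same 14 members in the same directions, while the median log2 fold change of the enzymes moved from -0.15 to -0.27 and -0.28. GC and length correction gave 10 members higher against 5, and 2641 genes higher against 1695. Among the male libraries alone, with 2 a group, 2 members were lower against 9, and 1117 genes were higher. When 1 library was left out in turn, members higher ranged from 2 to 5 and lower from 4 to 8, all genes higher from 1032 to 1791 and lower from 1372 to 2324, the enzyme median from -0.41 to -0.11 and the median of the transport, storage and LXR genes from 0.18 to 0.58. The lowest counts of members came without control replicate 3 (2 higher) and without control replicate 2 (4 lower), and lower calls were also few without control replicate 1 or knockout replicate 2 (5 each). Leaving 1 of 3 libraries out also leaves fewer samples to the fit.

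Members that did not pass changed sign without being called. With 1 library left out in turn, Mvk ranged from -0.31 to 0.06, Idi1 from -0.13 to 0.36, Fdps from -0.29 to 0.02 and Tm7sf2 from -0.57 to 0.37. In the male libraries Mvk was at 0.17, Idi1 at -0.13 and Fdps at 0.05, and after GC and length correction Fdps was at 0.01 and Tm7sf2 at 0.05. Sc5d and Insig2 were at 0.18 and 0.10 after the correction. The cause of these changes was not tested.

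The replicate numbers did not pair the libraries: deviations of same-numbered libraries correlated across genes at -0.104, 0.0417 and -0.058, and control replicate 1 correlated best with knockout replicate 3 (0.119), the female libraries. With the replicate block, 4 members were higher and 7 lower, and 1550 and 2014 genes in all. The limma calls that did not pass with the block were Pmvk (0.0616), Sqle (0.0587) and Insig1 (0.0751) among the members, and Pggt1b (0.0561) and Rnf139 (0.0681). Depth limits Abca1, with 14 to 59 reads a library, most among the members.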

Other observations

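Within the control group, replicate 3 had the lowest value of the 3 libraries in 19 of the 29 measured members, and in 12 of the 17 enzymes, where replicate 1 was lowest in 4 members and replicate 2 in 6. The range was widest for Abca1, the lowest member (29.3, 46.8 and 12.5 in control replicates 1, 2 and 3, 3.75-fold). It was 3.63-fold for Dhcr7, the reductase of the last step of synthesis (683, 496 and 188), and 1.96-fold for both Mvd (251, 279 and 143) and Sqle (1542, 1296 and 786). Tm7sf2, another sterol reductase, had a 3.73-fold range with replicate 3 highest, at 55.1, 26.8 and 99.8. In the knockout-labelled group, replicate 1 was lowest in 16 of 29 members, among them Mvd, Pmvk, Sqle, Lss, Srebf1, Scap and Nr1h2. These are descriptions of 3 libraries a group, with no test.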
